A study of Homo sapiens with 36 samples.

Results

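MYEOV, SOX10, EFHD1, STYXL2 and JAZF1 are 5 protein-coding genes. Each is the symbol of an array unit that was high in MEC-1 cells given antisense gapmers against LINC00158, and for most also against RP11-161H23.5. The 5 were chosen because of that pattern in these arrays, so their values with a gapmer against scrambled gapmer are a description and carry no test. Each gene is represented by the array unit that holds its symbol alone, and where there was more than 1 such unit by the brightest over 36 arrays. This gave 5 genes of 33616 with a symbol of their own, and 7 of 135750 units, because MYEOV and JAZF1 each had a second unit. The JAZF1 unit used carries no Entrez number and which transcript it reads is not known, so its values are those of that unit. It lies among units of plus-strand genes, and the second JAZF1 unit, which carries the Entrez number, among units of minus-strand genes.

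MEC-1 is an established human B-cell line from chronic lymphocytic leukaemia. LNA gapmers are short antisense oligonucleotides that lead RNase H to an RNA, and the cells took them up without a transfection reagent, at 1 µM of each gapmer over 4 days. There were 3 experiments, against the long non-coding RNAs LINC00158, RP11-161H23.5 and CYTOR, each with gapmer 1, gapmer 2, both together (gapmer 1+2) and a scrambled gapmer, and each of the 12 groups had 3 arrays. The dose is stated per gapmer, so cells with gapmer 1+2 may have received more oligonucleotide in total. The labels do not say whether the arrays of a group came from separate cultures, so p-values measure the spread between these arrays only. All groups are 1 cell line and no untreated group is used here, so what the scrambled gapmer itself does to a gene was not measured.

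The 5 genes are known from different tissues and processes. MYEOV was named from myeloma, where it can be switched on, and it lies at 11q13 near CCND1, a region that is translocated or amplified in several tumours. SOX10 is the HMG-box transcription factor of neural crest, peripheral glia and melanocytes. EFHD1 is a calcium-binding EF-hand protein of mitochondria. STYXL2, formerly DUSP27, is a catalytically inactive member of the dual-specificity phosphatase family that is found in striated muscle. JAZF1 is a zinc finger protein that works with the TIP60/NuA4 histone acetyltransferase complex and is fused to SUZ12, a subunit of the PRC2 repressor, in endometrial stromal tumours.

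The word silent fits these genes unevenly. Over the 9 scrambled arrays the unit of STYXL2 averaged a log2 signal of 4.05, above 51.5% of all units, and the median of each of the 36 arrays lay between 3.82 and 4.09. EFHD1 averaged 4.62 there, above 68.4% of units, and SOX10 averaged 4.77, above 71.4%. MYEOV averaged 5.82, above 84.2%. JAZF1 averaged 9.06, above 95.7%, and ran from 7.66 to 10.40, so its unit was bright before any targeting gapmer was given. An array level also holds the brightness of its probes, so these ranks do not order the genes by RNA amount. In bulk RNA, more cells with the transcript and more RNA per cell cannot be told apart.

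Some facts of the arrays bear on all of these results. The LINC00158 unit was lower in its own experiment (change -2.30, SE 0.31, limma adjusted p 0.00109), at 5.32 to 6.01 in the 3 treated groups and 7.94 with scrambled gapmer, but it was also at 5.36 to 5.65 in the RP11-161H23.5 treatments against 6.80 with scrambled gapmer. On the CYTOR-labelled arrays it averaged 7.22 with gapmer 1, 6.05 with gapmer 2 and 5.88 with gapmer 1+2, against 7.09 with scrambled gapmer. The CYTOR unit went against its label: it was higher, by 1.24 (SE 0.19, adjusted p 0.00220), in the arrays labelled with CYTOR gapmers, at 6.27 to 6.93 against 5.34 with scrambled gapmer. Those arrays are therefore called CYTOR-labelled below, and no unit carried the name RP11-161H23.5. The rise is one against its own scrambled group only, because scrambled levels of the CYTOR unit varied. They averaged 6.21 on LINC00158 arrays, close to the 6.27 of CYTOR gapmer 1+2, but 4.82 on RP11-161H23.5 arrays. Treated groups there were lower than their scrambled group, at 4.51 to 5.24 with LINC00158 gapmers and 3.83 to 4.43 with RP11-161H23.5 gapmers. Among 3718 bright units (mean of at least 10), 3.98% to 11% had the identical value on 2 arrays of a set, for 4 sets of 9 arrays: the scrambled arrays of all experiments, and the treated arrays of each. For arrays of different sets this was 0.0807% to 0.941%. Set and gapmer cannot be told apart in any comparison of treated with scrambled arrays. The median unit of B-cell marker genes stayed bright, at 8.81 to 10.78 in treated groups and 9.12 to 10.44 in scrambled groups, and those of T and NK cell, myeloid, epithelial and stromal, neuron and hepatocyte markers lay between 3.45 and 4.48 in every group.

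On its brightest unit MYEOV had the largest change of the 5 genes in both experiments in which it was high. With the LINC00158 gapmers its 3 arrays read 8.89, 9.64 and 9.95 for gapmer 1, 9.86, 9.75 and 9.69 for gapmer 2 and 10.67, 10.11 and 9.71 for gapmer 1+2, against 5.45, 5.43 and 5.78 with scrambled gapmer. With the RP11-161H23.5 gapmers they read 9.94, 9.85 and 10.38, then 9.80, 9.33 and 10.03, then 10.25, 9.62 and 9.74, against 6.19, 5.76 and 6.55 with scrambled gapmer. Every treated array of these 2 experiments was above every scrambled array, and the lowest treated array, at 8.89, stood clear of the highest scrambled one, at 6.55. The mean of the 3 treatments was 4.25 higher than scrambled on the log2 scale in the LINC00158 experiment (9.81 against 5.55, SE 0.24), a 19.1-fold signal. For the RP11-161H23.5 treatments the difference was 3.72 (9.88 against 6.17, SE 0.21), or 13.1-fold. The mean over both MYEOV units changed by 1.65 and 1.54, less than SOX10 did.

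The CYTOR-labelled arrays did not share this. MYEOV read 5.39, 5.03 and 4.72 with gapmer 1, 5.24, 5.0 and 4.68 with gapmer 2 and 4.96, 4.98 and 4.99 with gapmer 1+2, against 6.17, 5.27 and 5.76 with scrambled gapmer. The mean change was -0.73 (5.0 against 5.73, SE 0.20), and 1 treated array overlapped the scrambled range. Ordered by level, MYEOV had 6 groups between 9.49 and 10.16, all treated with LINC00158 or RP11-161H23.5 gapmers, whose neighbours in the order overlapped, then a gap to the 3 scrambled groups at 5.55 to 6.17, then the 3 CYTOR-labelled treatments at 4.97 to 5.05.

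**Figure D1:**
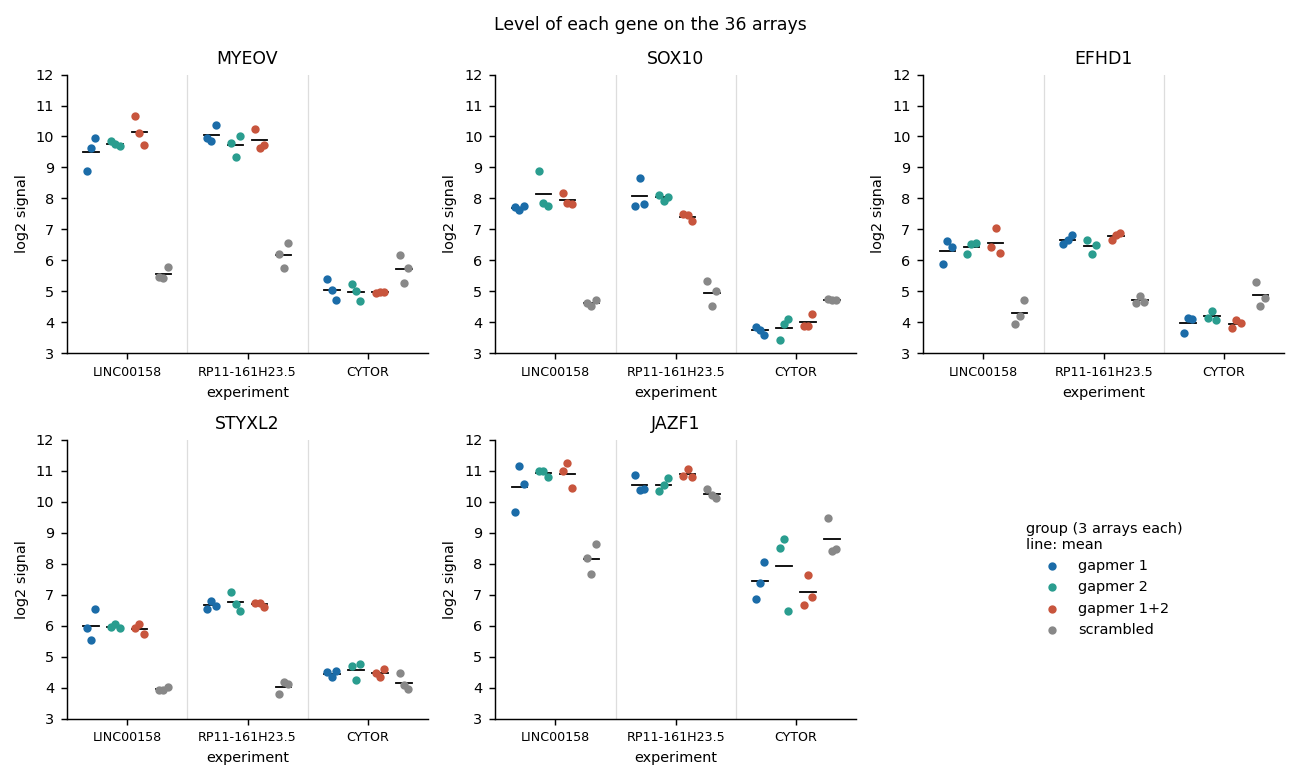
Log2 signal (vertical axis) of the brightest unit of each of the 5 genes on 36 arrays. Each point is 1 array, each short line the mean of 3 arrays, and within each experiment the 3 treatments stand left of scrambled gapmer. MYEOV, SOX10, EFHD1 and STYXL2 are high in the LINC00158 and RP11-161H23.5 treatments, and JAZF1 is also high with the scrambled gapmer of the RP11-161H23.5 experiment.

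SOX10 followed MYEOV closely. It read 7.71, 7.63 and 7.76 with LINC00158 gapmer 1, 8.87, 7.84 and 7.75 with gapmer 2 and 8.19, 7.84 and 7.82 with gapmer 1+2, against 4.63, 4.51 and 4.72 with scrambled gapmer. With RP11-161H23.5 gapmers it read 7.74, 8.66 and 7.82, then 8.11, 7.93 and 8.06, then 7.49, 7.45 and 7.27, against 5.32, 4.53 and 5.02 with scrambled gapmer. All 9 treated arrays of each of these experiments were above the scrambled ones, with mean changes of 3.31 (7.93 against 4.62, SE 0.22) and 2.88 (7.84 against 4.96, SE 0.21). On the CYTOR-labelled arrays SOX10 read 3.86, 3.75 and 3.60 with gapmer 1, 3.43, 3.93 and 4.12 with gapmer 2 and 3.87, 3.87 and 4.26 with gapmer 1+2, against 4.76, 4.72 and 4.72 with scrambled gapmer. All 9 of those treated arrays lay below the scrambled ones, with a mean change of -0.88 (3.85 against 4.73, SE 0.16).

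EFHD1 had smaller changes of the same directions. It read 5.87, 6.63 and 6.44 with LINC00158 gapmer 1, 6.21, 6.52 and 6.57 with gapmer 2 and 6.42, 7.06 and 6.24 with gapmer 1+2, against 3.94, 4.20 and 4.72 with scrambled gapmer. With RP11-161H23.5 gapmers it read 6.52, 6.66 and 6.83, then 6.67, 6.21 and 6.48, then 6.66, 6.81 and 6.87, against 4.61, 4.86 and 4.66 with scrambled gapmer. No treated array of these experiments overlapped its scrambled group, and the mean changes were 2.15 (6.44 against 4.29, SE 0.23) and 1.92 (6.63 against 4.71, SE 0.14). The CYTOR-labelled arrays gave EFHD1 values of 3.66, 4.14 and 4.12 with gapmer 1, 4.15, 4.37 and 4.06 with gapmer 2 and 3.83, 4.07 and 3.99 with gapmer 1+2, against 5.30, 4.52 and 4.79 with scrambled gapmer. All of these treated arrays were below the scrambled ones, with a mean change of -0.83 (4.04 against 4.87, SE 0.18). Such lower values in the CYTOR-labelled arrays go with a lower array median there, of 3.87 in treated and 4.06 in scrambled arrays, a difference of -0.19. With quantile normalization, which removes that difference, the changes there were -0.38 for MYEOV, -0.61 for SOX10, -0.53 for EFHD1 and 0.57 for STYXL2.

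STYXL2 was the dimmest of the 5 units with scrambled gapmer and the only one with a larger change in the RP11-161H23.5 than in the LINC00158 experiment. It read 5.92, 5.55 and 6.53 with LINC00158 gapmer 1, 5.95, 6.06 and 5.91 with gapmer 2 and 5.92, 6.06 and 5.72 with gapmer 1+2, against 3.91, 3.91 and 4.03 with scrambled gapmer. With RP11-161H23.5 gapmers it read 6.54, 6.80 and 6.64, then 7.08, 6.70 and 6.46, then 6.72, 6.73 and 6.61, against 3.78, 4.19 and 4.12 with scrambled gapmer. The mean changes were 2.01 (5.96 against 3.95, SE 0.19) and 2.67 (6.70 against 4.03, SE 0.16), with no overlap of treated and scrambled arrays in either experiment, and the difference between these 2 changes was not tested. STYXL2 on the CYTOR-labelled arrays read 4.49, 4.34 and 4.52 with gapmer 1, 4.69, 4.26 and 4.76 with gapmer 2 and 4.47, 4.34 and 4.61 with gapmer 1+2, against 4.46, 4.07 and 3.96 with scrambled gapmer. Here the groups overlapped, and the mean change was 0.33 (4.50 against 4.16, SE 0.16), the only one of the 5 above 0 in that experiment.

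JAZF1 had another pattern. It read 9.67, 11.17 and 10.57 with LINC00158 gapmer 1, 11, 10.99 and 10.79 with gapmer 2 and 10.99, 11.26 and 10.45 with gapmer 1+2, against 8.17, 7.66 and 8.63 with scrambled gapmer, a mean change of 2.61 (10.77 against 8.15, SE 0.29). With RP11-161H23.5 gapmers it read 10.87, 10.37 and 10.41, then 10.34, 10.53 and 10.78, then 10.84, 11.05 and 10.79, against 10.40, 10.22 and 10.11 with scrambled gapmer. The treated levels of the 2 experiments were alike, but the scrambled group of the RP11-161H23.5 experiment was already as high as the lowest treated group within their spread, and the mean change there was 0.42 (10.66 against 10.24, SE 0.16) with overlapping arrays. Averaged over both of its units JAZF1 changed by 1.05 and -0.05, and against all 9 scrambled arrays its brightest unit changed by 1.70 and 1.60. JAZF1 on the CYTOR-labelled arrays read 6.85, 7.39 and 8.06 with gapmer 1, 8.52, 8.79 and 6.47 with gapmer 2 and 6.67, 7.64 and 6.92 with gapmer 1+2, against 9.47, 8.42 and 8.49 with scrambled gapmer. The mean change was -1.31 (7.48 against 8.79, SE 0.45) with overlapping arrays, and gapmer 2 had the widest spread of any group for any of the 5 genes (SD 1.27, n = 3).

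**Figure D2:**
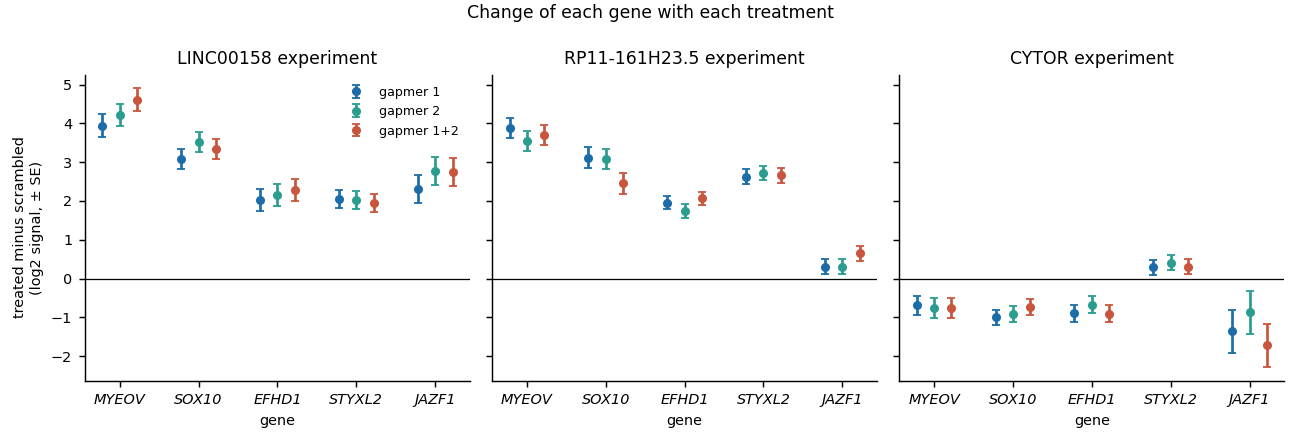
Difference between each treatment and its own scrambled group (vertical axis, log2 signal) for the 5 genes (horizontal axis) in the 3 experiments, with the standard error of the limma fit as bars. The 3 treatments of an experiment lie close together for each gene, and the CYTOR panel lies at or below 0 except for STYXL2.

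In the LINC00158 experiment all 9 treated arrays were above the 3 scrambled arrays for 5 of the 5 genes, a pattern that 5.40% of all units showed. With RP11-161H23.5 gapmers this held for 4 of the 5, all but JAZF1, and for 5.73% of units. It held on the CYTOR-labelled arrays for 0 of the 5, and for 2.67% of units. All 9 treated arrays were below the scrambled ones for 2 genes there, SOX10 and EFHD1, and for 9.46% of units, and for none of the 5 genes in the LINC00158 and RP11-161H23.5 experiments, where 7.61% and 7.12% of units did so. The genes were chosen on these contrasts, so nothing is read from the counts.

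Ranked by mean change among the 33616 named genes, MYEOV was at position 3 from the top in the LINC00158 experiment and 1 in the RP11-161H23.5 experiment. SOX10 stood at 7 and 2, STYXL2 at 36 and 3, EFHD1 at 29 and 15, and JAZF1 at 15 and 4173. From the bottom of the CYTOR-labelled ranking JAZF1 was at 354, SOX10 at 1938, EFHD1 at 2324 and MYEOV at 3152. Only 6 named genes were at least 2 higher (log2) in both the LINC00158 and the RP11-161H23.5 experiments. These were MYEOV, SOX10 and STYXL2, the microRNA gene MIR1185-1 (2.05 and 2.02) and the signal recognition particle RNA pseudogenes RN7SL395P (3.44 and 2.59) and RN7SL81P (2.39 and 2.61), which are named here after their values were seen. The size of 2 is a round number, EFHD1 was just under it in the RP11-161H23.5 experiment at 1.92, and 7 named genes were at least 2 lower in both.

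The choice of the genes did not compare treatments of an experiment with each other, but the values of each treatment entered it. Genes chosen as high with the gapmers lean to agreement between treatments, so the tests given here cannot show that the treatments agree. Gapmer 1 was compared with gapmer 2, and gapmer 1+2 with the mean of the single gapmers, with limma across all units and Benjamini-Hochberg adjustment. None of the 30 tests of the 5 genes passed an adjusted p under 0.05, and 1 had an unadjusted p under 0.05. That one was SOX10 with RP11-161H23.5 gapmer 1+2, which averaged 7.40 ± 0.12 against 8.07 ± 0.51 with gapmer 1 and 8.03 ± 0.09 with gapmer 2 (SD, n = 3 arrays each), a difference of -0.65 (SE 0.22, limma adjusted p = 0.611). MYEOV with LINC00158 gapmer 1+2 was 0.53 above the mean of its single gapmers (SE 0.25, limma adjusted p = 1.00). Of all units 0% were called in each of these 6 contrasts, while 4.46% to 6.97% had an unadjusted p under 0.05. With 3 arrays a group, differences of this size were not distinguished from the spread, and equal responses are not shown by it.

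The scrambled groups hold no targeting gapmer, but their values entered the choice of the genes, so the differences between them are a description and carry no test. JAZF1 was higher in the RP11-161H23.5 than in the LINC00158 scrambled group, at 10.24 ± 0.15 against 8.15 ± 0.49 (SD, n = 3 arrays each), by 2.09 (SE 0.32). The LINC00158 treatments exceeded their own scrambled group by 2.61, and the low LINC00158 scrambled values enter both differences. JAZF1 was also 1.45 higher in the RP11-161H23.5 than in the CYTOR scrambled group (SE 0.32). MYEOV was 0.61 higher in the RP11-161H23.5 than in the LINC00158 scrambled group (SE 0.27), and the other differences of MYEOV, SOX10, EFHD1 and STYXL2 lay between -0.16 and 0.58. Among all units 1.90% were called for RP11-161H23.5 against LINC00158, 0.595% for RP11-161H23.5 against CYTOR and 0% for CYTOR against LINC00158, where 7.66% had an unadjusted p under 0.05.

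The second units of MYEOV and JAZF1 gave a further check, from other probes on the same arrays and the same RNA. In the LINC00158 and RP11-161H23.5 experiments both had changes of the opposite sign to the brightest unit, and in the CYTOR-labelled arrays both had the same sign as it. The second MYEOV unit read 6.42, 5.98 and 5.63 with LINC00158 gapmer 1, 5.81, 5.99 and 5.89 with gapmer 2 and 5.51, 5.15 and 6.14 with gapmer 1+2, against 7.08, 6.73 and 6.55 with scrambled gapmer. It fell there (mean change -0.95, 5.84 against 6.79, SE 0.22, limma adjusted p = 0.0144), while the brightest unit of MYEOV was 4.25 higher on the same arrays. The call was lost without LINC00158 scrambled replicate 1 (adjusted p 0.0823) or 2 (adjusted p 0.0507). Its change with RP11-161H23.5 gapmers was -0.63 (5.59 against 6.22, SE 0.24, limma adjusted p = 0.0959), which passed only without gapmer 1 replicate 1 (adjusted p 0.0359). In the CYTOR-labelled arrays it fell (mean change -0.78, 5.95 against 6.73, SE 0.21, limma adjusted p = 0.0270), the direction of the brightest unit, which changed by -0.73. That call was lost with quantile normalization (-0.45, adjusted p 0.180) and without scrambled replicate 1 (adjusted p 0.121) or 3 (adjusted p 0.0711). Of all units 10.8%, 9.15% and 12.6% were called lower in the LINC00158, RP11-161H23.5 and CYTOR-labelled comparisons, and 6.31%, 6.22% and 2.46% higher.

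The choice of the brightest unit leans to the one that was high in treated arrays. The MYEOV unit used averaged 8.23 over the 27 treated arrays and 5.82 over the 9 scrambled arrays, and the other one 5.79 and 6.58. By the scrambled arrays alone the other unit would have been taken. The second JAZF1 unit averaged 6.64 in the treated and 7.39 in the scrambled arrays, and the unit used was the brighter in both.

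The second JAZF1 unit read 7.22, 6.94 and 6.85 with LINC00158 gapmer 1, 6.67, 6.87 and 6.93 with gapmer 2 and 6.87, 6.82 and 6.91 with gapmer 1+2, against 7.05, 7.39 and 7.81 with scrambled gapmer. Its change of -0.52 (6.90 against 7.42, SE 0.17, limma adjusted p = 0.0536) missed the threshold and had the opposite sign to the brightest unit. It passed with the filter at the median (adjusted p 0.0443), with all 36 arrays in 1 fit (adjusted p 0.0108), and without LINC00158 scrambled replicate 1 (adjusted p 0.0389) or gapmer 1 replicate 1 (adjusted p 0.0345). With RP11-161H23.5 gapmers its arrays ran from 6.19 to 6.98 with gapmers and from 7.08 to 7.39 with scrambled gapmer, and it fell (mean change -0.51, SE 0.15, limma adjusted p = 0.0412). That call was lost in 9 of the 12 fits without 1 array (adjusted p up to 0.172), with quantile normalization (adjusted p 0.0699), with trend and robust (adjusted p 0.0715) and with the replicate block (adjusted p 0.0635). The same unit ran on the CYTOR-labelled arrays from 5.97 to 6.53, against 7.44 to 7.64 with scrambled gapmer. It fell there (mean change -1.24, SE 0.14, limma adjusted p = 0.000523), the same direction as the brightest unit, whose arrays overlapped.

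**Figure D3:**
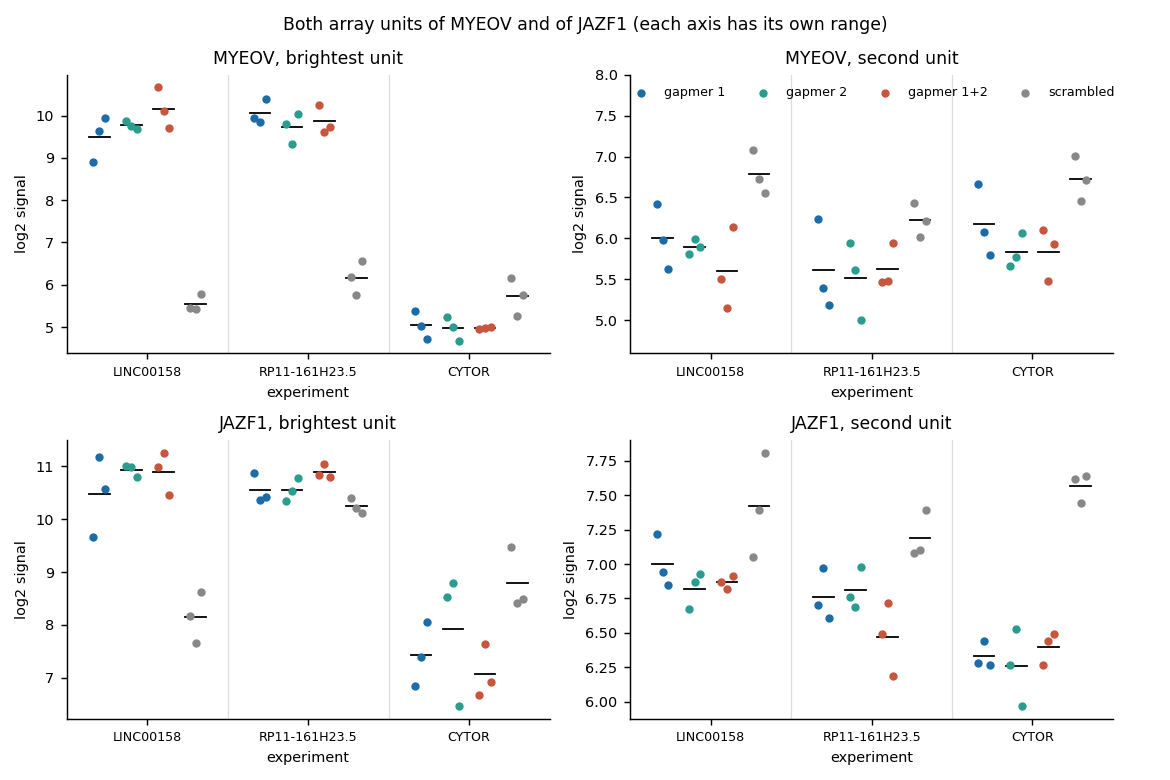
Log2 signal (vertical axis, with a range of its own in each panel) of both units of MYEOV (top) and of JAZF1 (bottom) on 36 arrays, treatments left of scrambled gapmer in each experiment. The brightest MYEOV unit is high in the LINC00158 and RP11-161H23.5 treatments while its second unit lies below most scrambled arrays, and the second JAZF1 unit is lower in the treatments of all 3 experiments.

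The 2 units of JAZF1 differ in what the array says of them. The second one carries the gene's Entrez number and lies among units of genes on the minus strand, 20 of the 20 nearest-numbered ones whose strand RefSeq gives. The brightest one carries the symbol without an Entrez number, and 20 of the 20 nearest-numbered such units belong to genes on the plus strand. Both MYEOV units lay among genes of 1 strand, with 20 of 20 on the plus strand. The antisense neighbour JAZF1-AS1 has a unit of its own, numbered 1 step after the brightest JAZF1 unit. The JAZF1-AS1 unit averaged between 2.81 and 3.22 in the 12 groups. Which transcript the brightest JAZF1 unit reads was not tested. By these neighbours the 2 JAZF1 units lie on opposite strands, so an average over both mixes the strands. Values of the brightest unit are given here under the symbol of the array's table and may not be those of the protein-coding transcript.

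The array numbers its units by chromosome and strand, at distances that vary, and the 10 units before and 10 after each brightest unit were counted. These counts stand beside the 6.31% of all units called higher and 10.8% called lower in the LINC00158 experiment, and the 6.22% and 9.15% in the RP11-161H23.5 experiment, which come to few of any 20 units. Around MYEOV 0 of 20 were called higher and 4 lower in the LINC00158 experiment (highest change 0.25), and 0 and 1 in the RP11-161H23.5 experiment (highest 0.32). These 20 units do not hold ANO1 or CCND1, genes of the 11q13 region of MYEOV that are given below. ANO1 was called higher in both experiments and CCND1 was called in neither. Around SOX10 these counts were 1 and 2 (highest 1.27), then 0 and 2 (highest 0.36). Around EFHD1 none was called higher in either experiment, with 1 and 2 called lower and highest changes of 0.59 and 0.46. Around STYXL2 2 were called higher in each experiment, with highest changes of 1.47 and 0.72. For these 4 genes, none of the 20 nearest-numbered units reached the change of the gene itself in these experiments.

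Around the brightest JAZF1 unit 2 of 20 were called higher and 1 lower in the LINC00158 experiment, and 3 higher and 1 lower in the RP11-161H23.5 experiment. An unnamed unit 5 steps on was higher with LINC00158 gapmers by 1.30 (5.70 against 4.40, SE 0.30, limma adjusted p = 0.0136) and with RP11-161H23.5 gapmers by 1.74 (7.62 against 5.88, SE 0.31, adjusted p = 0.00358), and lower in the CYTOR-labelled arrays (3.97 against 5.53, change -1.55, SE 0.25, adjusted p = 0.00271). Another, 10 steps on, changed by 2.29 (SE 0.53, limma adjusted p = 0.0142), 0.99 (SE 0.24, adjusted p = 0.0169) and -1.72 (SE 0.36, adjusted p = 0.00890). These 2 units, singled out after their values were seen, thus had the signs of the JAZF1 unit in all 3 experiments. Of neighbours with a symbol, also named after their values were seen, TAX1BP1 fell in the LINC00158 experiment (12.76 against 14.86, change -2.11, SE 0.36, limma adjusted p = 0.00386), and CREB5 rose in the RP11-161H23.5 experiment (7.99 against 7.03, change 0.96, SE 0.23, adjusted p = 0.0145).

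**Figure D4:**
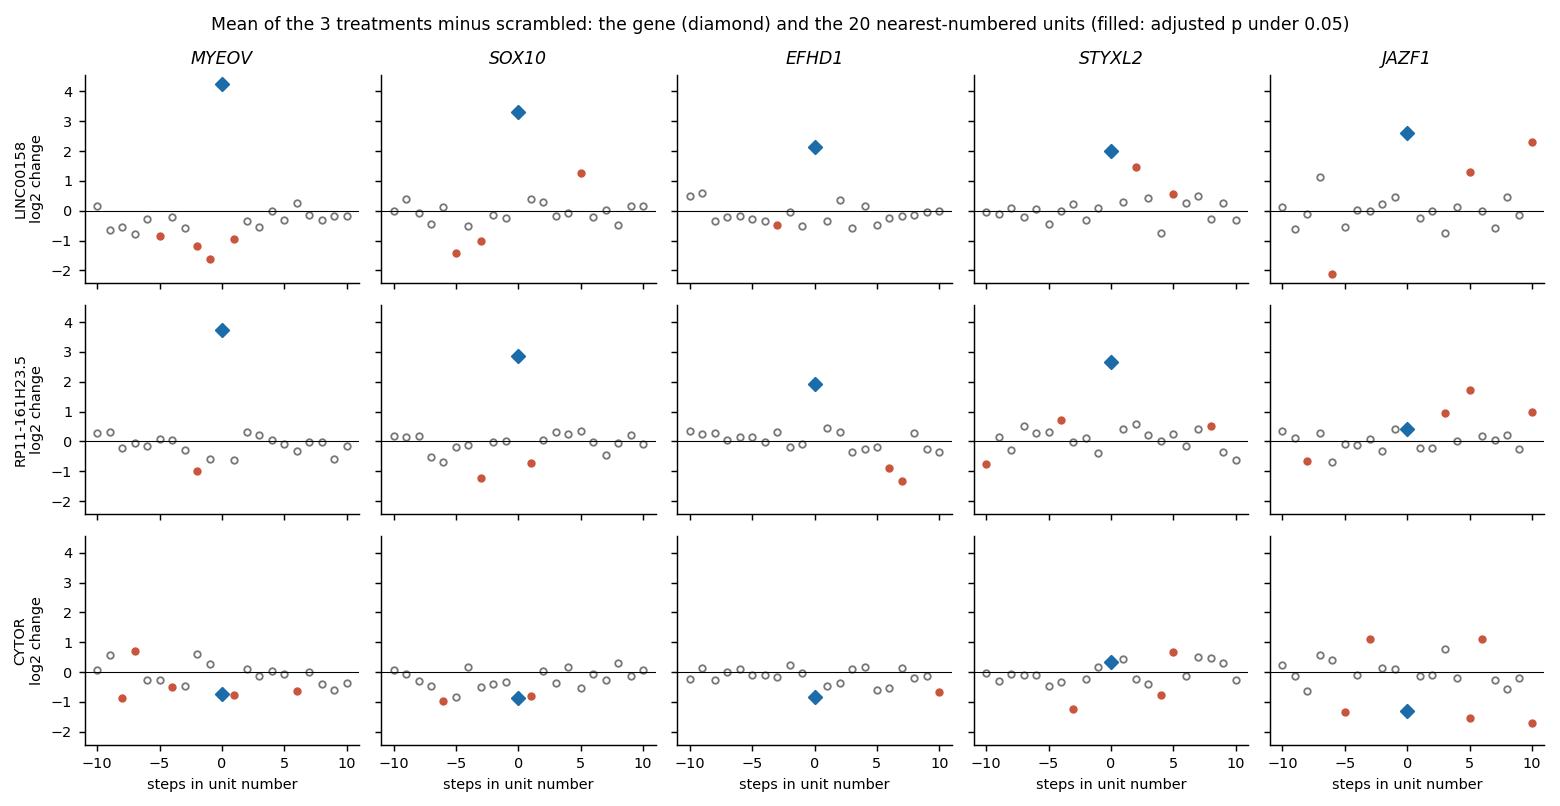
Mean of the 3 treatments minus scrambled (vertical axis, log2 signal) of each gene's brightest unit (diamond, at 0) and of the 20 units numbered nearest to it (horizontal axis, steps in unit number), by experiment in rows. Filled points passed an adjusted p under 0.05. The diamonds of MYEOV, SOX10, EFHD1 and STYXL2 stand above all 20 of these units in the upper rows, and for JAZF1 2 of them lie high as well. Units near in number need not be the nearest on the chromosome.

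Genes linked to each of the 5 by function or position were read from lists, on the brightest unit of each gene. Over the brightest units of all 33616 named genes, 4.66% rose and 17.7% fell in the LINC00158 experiment, 6.23% rose and 9.84% fell in the RP11-161H23.5 experiment, and 2.67% rose and 12.4% fell in the CYTOR-labelled arrays. The calls over the 5 lists came to 25, 14 and 20, against 16 and 13 in the LINC00158 and CYTOR-labelled comparisons with quantile normalization, and 9 and 12 in the RP11-161H23.5 and CYTOR-labelled comparisons with the filter at the median. Of 17 genes from the 11q13 region around MYEOV, 1 rose and 4 fell in the LINC00158 experiment, and 3 rose and 0 fell in the RP11-161H23.5 experiment. The list medians were -0.25 and -0.08, against -0.20 and -0.04 over all named genes. ANO1, a calcium-activated chloride channel, was the one that rose most in both. It ran from 5.40 to 8.15 with LINC00158 gapmers, against 4.67 to 5.05 with scrambled gapmer, a change of 2.11 (SE 0.35, limma adjusted p = 0.00328). With RP11-161H23.5 gapmers it ran from 7.28 to 8.09, against 5.43 to 5.91, a change of 1.99 (SE 0.17, limma adjusted p = 4.30e-05), and in the CYTOR-labelled arrays it ran from 4.52 to 5.09, against 4.68 to 5.35 (change -0.33, SE 0.16, adjusted p = 0.198). Both of its calls held under every alternative run on ANO1 and without any single array. TPCN2, an endolysosomal channel gene of the same list, fell in the LINC00158 experiment (5.83 against 6.87, change -1.04, SE 0.28, adjusted p 0.0265), and CCND1, the cell cycle gene at the centre of 11q13 translocations, had changes of -0.61 and -0.48 that did not pass the test.

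In the CYTOR-labelled arrays 1 of the 17 rose and 4 fell, with a median of -0.40 against -0.13 over all named genes. TPCN2 fell there (5.03 against 6.31, change -1.27, SE 0.19, adjusted p 0.00173), and TESMIN, a metallothionein-like gene of testis, rose (3.71 against 3.10, change 0.61, SE 0.16, adjusted p 0.0276). TESMIN also rose in the RP11-161H23.5 experiment (4.13 against 3.46, change 0.67, SE 0.15, adjusted p 0.0126), together with CPT1A, the mitochondrial fatty acid transferase (3.77 against 3.33, change 0.44, SE 0.12, adjusted p 0.0295). Of these TESMIN and CPT1A levels, all but the 4.13 lay below the median of every array (3.82 to 4.09), so both units were dim.

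Of 30 listed neural crest, glial and melanocyte genes 24 had a unit, and 0 rose and 4 fell in the LINC00158 experiment, 1 rose and 1 fell in the RP11-161H23.5 experiment, and 0 rose and 5 fell in the CYTOR-labelled arrays. For so few genes these counts are near the shares over all named genes, and the medians were -0.05, -0.10 and -0.21. GPR143, a melanosome receptor, fell with LINC00158 gapmers (3.30 against 4.47, change -1.17, SE 0.16, adjusted p 0.00134) and in the CYTOR-labelled arrays (3.57 against 4.91, change -1.34, SE 0.21, adjusted p 0.00208). Both treated levels of GPR143 lay below the median of every array (3.82 to 4.09). RET, a receptor kinase of enteric neural crest, fell in the LINC00158 experiment (4.02 against 4.80, change -0.79) and rose in the RP11-161H23.5 experiment (4.75 against 4.29, change 0.46). MITF, the melanocyte regulator that SOX10 activates, averaged 3.33 against 3.35 and 3.36 against 3.98 in these experiments and passed in neither, and ERBB3, a glial SOX10 target, had changes of -0.01 and 0.11.

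Of 30 striated muscle genes, listed beside STYXL2, 0 rose and 5 fell in the LINC00158 experiment, 2 rose and 5 fell in the RP11-161H23.5 experiment, and 0 rose and 5 fell in the CYTOR-labelled arrays, with medians of -0.04, -0.10 and -0.01. In the LINC00158 experiment 17.7% of named genes fell, so 5 of 30 is near that share. ACTA1, skeletal muscle actin, fell with LINC00158 gapmers (3.60 against 4.89, change -1.29, SE 0.26, adjusted p 0.00799), and MYH3, embryonic myosin, fell in the CYTOR-labelled arrays (3.61 against 4.61, change -1.01, SE 0.16, adjusted p 0.00213). These treated levels of ACTA1 and MYH3 lay below the median of every array (3.82 to 4.09). The 2 that rose in the RP11-161H23.5 experiment were TNNC1, cardiac and slow muscle troponin C (5.73 against 4.85, change 0.88), and MYH6, cardiac myosin (4.49 against 3.73, change 0.77). MEF2C, which muscle shares with B cells, fell there (12.38 against 13.35, change -0.96, SE 0.16, adjusted p 0.00228).

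Of 20 measured genes of mitochondrial calcium handling, listed beside EFHD1, 0 rose and 8 fell in the LINC00158 experiment, where 4.66% and 17.7% of named genes did, with a median of -0.61 against -0.20 over all named genes. They included UCP2, an inner membrane carrier (11.18 against 12.86, change -1.68, SE 0.37, adjusted p 0.0110), SMDT1, the EMRE subunit of the calcium uniporter (9.64 against 11.03, change -1.39, SE 0.33, adjusted p 0.0161), and MCU, the pore of the uniporter (4.10 against 5.21, change -1.11, SE 0.30, adjusted p 0.0280). UCP2 and SMDT1 were bright, and no share was taken over genes of like brightness. Whether such genes in general fell as often was not tested. In the RP11-161H23.5 experiment 0 rose and 0 fell in the limma test, where 6.23% and 9.84% of named genes did and 30.6% of all units had an unadjusted p under 0.05, and in the CYTOR-labelled arrays 1 rose and 1 fell. The one that rose there was EFHD2, the paralogue of EFHD1 (6.71 against 6.17, change 0.54, SE 0.17, adjusted p 0.0479), whose changes in the LINC00158 and RP11-161H23.5 experiments were -0.25 and 0.02.

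For JAZF1, 21 genes were measured of a list of TIP60/NuA4 and PRC2 genes that also held the nuclear receptors NR2C1 and NR2C2. In the LINC00158 experiment 0 rose and 3 fell. These were RUVBL1, a shared ATPase of chromatin complexes (9.80 against 11.37, change -1.57, SE 0.34, adjusted p 0.0108), ING3, a histone reader of TIP60/NuA4 (6.12 against 7.32, change -1.20, SE 0.29, adjusted p 0.0165), and NR2C1 (6.28 against 7.49, change -1.21, SE 0.33, adjusted p 0.0283). In the RP11-161H23.5 experiment 1 rose and 1 fell, MEAF6 (7.56 against 6.94, change 0.62) and ING3 (5.88 against 6.51, change -0.64). In the CYTOR-labelled arrays 3 rose and 0 fell, namely MBTD1, a TIP60/NuA4 subunit (8.89 against 7.85, change 1.04, SE 0.21, adjusted p 0.00827), SUZ12 (7.77 against 6.82, change 0.95, SE 0.17, adjusted p 0.00424) and VPS72 (7.22 against 6.47, change 0.75, SE 0.21, adjusted p 0.0295). The list medians were -0.42, -0.01 and -0.05, against -0.20, -0.04 and -0.13 over all named genes. Of all named genes 4.66%, 6.23% and 2.67% rose and 17.7%, 9.84% and 12.4% fell.

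**Figure D5:**
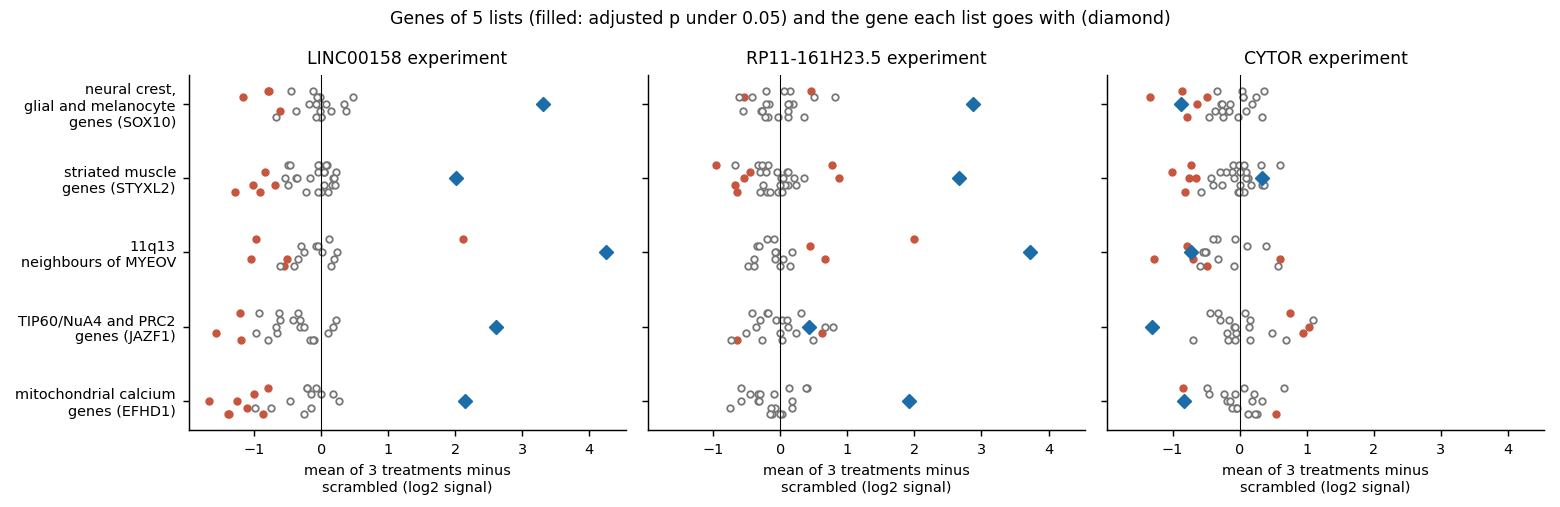
Mean of the 3 treatments minus scrambled (horizontal axis, log2 signal) for the measured genes of 5 lists (rows), by experiment. Filled points passed an adjusted p under 0.05, and diamonds are the gene each list goes with. ANO1 is the filled point near 2 in the 11q13 row of the LINC00158 and RP11-161H23.5 panels, and no other list gene lies near its diamond in those panels except around JAZF1 with RP11-161H23.5 gapmers.

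Markers of B cells moved in the same arrays in which the 5 genes were high. In the LINC00158 experiment 0 of 13 measured markers rose and 11 fell, with a median of -1.34, and in the RP11-161H23.5 experiment 0 rose and 4 fell, with a median of -0.43. Of all named genes 17.7% and 9.84% fell in these experiments. The markers were bright, with group medians of 9.12 to 10.44 with scrambled gapmer, and no share was taken over genes of like brightness. Whether bright genes in general fell as often was not tested. CD37, a tetraspanin of B cells, fell with LINC00158 gapmers (11.83 against 13.89, change -2.05, SE 0.35, adjusted p 0.00369), as did CD79A and CD79B, the signalling chains of the B-cell receptor, with changes of -1.65 and -1.66. CD40, a costimulatory receptor, fell in the LINC00158 (8.78 against 10.44, change -1.66), RP11-161H23.5 (7.67 against 8.97, change -1.29) and CYTOR-labelled comparisons (9.18 against 9.95, change -0.77), where it was the one marker of 13 to fall and none rose. The part of this shift in the values of the 5 genes was not tested.

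Markers of other cell types were counted beside the 4.66%, 6.23% and 2.67% of named genes that rose and the 17.7%, 9.84% and 12.4% that fell. In the LINC00158, RP11-161H23.5 and CYTOR-labelled comparisons, 1, 1 and 0 of 14 T and NK cell markers rose and 2, 1 and 0 fell, and 1, 1 and 0 of 13 myeloid markers rose and 5, 2 and 3 fell. For epithelial and stromal markers, 1, 3 and 0 of 13 rose and 1, 1 and 2 fell. The 3 that rose in the RP11-161H23.5 experiment were KRT8 (change 0.51), COL1A2 (change 0.61) and KRT14 (3.48 against 2.98, both below the median of every array). KRT19 of the same list fell there (change -1.14). That 3 of 13 and the 5 of 13 myeloid markers that fell with LINC00158 gapmers are above the shares over named genes. For so few genes nothing is read from such shares. For neuron markers 0 of 14 rose in each, and 3, 2 and 2 fell. For hepatocyte markers 0, 1 and 1 of 15 rose and 2, 0 and 0 fell. COL1A1, a stromal collagen, rose with LINC00158 gapmers (8.71 against 7.49, change 1.22, SE 0.30, adjusted p 0.0178). FCN1, a monocyte lectin, fell there (3.80 against 5.65, change -1.86, SE 0.16, adjusted p 0.000107). Its treated level lay below the median of every array (3.82 to 4.09). ALB, liver albumin, rose with RP11-161H23.5 gapmers (5.40 against 4.33, change 1.07, SE 0.24, adjusted p 0.0109).

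Over the 36 arrays the 5 genes followed each other with Pearson correlations of 0.702 (STYXL2 with JAZF1) to 0.978 (MYEOV with SOX10). Other named genes were as close. For MYEOV they were RN7SL395P (r = 0.981), RN7SL775P (0.967) and RNA5SP413 (0.965), which are pseudogenes of signal recognition particle RNA and 5S ribosomal RNA. For SOX10 they were RN7SL395P (0.977), ASTL, an oocyte protease gene (0.960), and RNA5SP413 (0.959), and for EFHD1 they were RN7SL395P (0.971), RNA5SP413 (0.968) and MIR4261 (0.963). STYXL2 was closest to RN7SL775P (0.970), CEP170B, a centrosomal protein gene (0.948), and RN7SL81P (0.931). Among the genes closest to JAZF1 were CRLF3 (0.953) and MIR4259 (0.951). The arrays share 4 sets and 12 groups, so these correlations describe differences between groups, and none carries a test.

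Within the 9 treated arrays of an experiment the likeness was weaker for most of these pairs. RN7SL395P and MYEOV correlated at 0.83, 0.00 and -0.22 in the LINC00158, RP11-161H23.5 and CYTOR-labelled treated arrays, and RN7SL395P and SOX10 at 0.18, -0.23 and 0.00. RN7SL775P had the same value on all 9 treated arrays of the LINC00158 experiment, and likewise on the CYTOR-labelled ones, so no correlation could be taken there. In the RP11-161H23.5 treated arrays it correlated at 0.17 with MYEOV and 0.13 with STYXL2. Its mean changes were 0.63, 0.76 and 0.04. The values were higher for EFHD1 with MIR4261, at 0.81, 0.57 and 0.60, and for JAZF1, at 0.92, 0.52 and 0.82 with MIR4259 and 0.87, 0.40 and 0.76 with CRLF3.

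Of the 5 genes only EFHD1 and STYXL2 had a match among the RefSeq promoters used here (GRCh38.p14), and these 2 are shown for that reason. Each window runs from 250 bases before to 50 bases after the gene's start. EFHD1 lies at chr2:232633354-232633653 on the plus strand and STYXL2 at chr1:167093825-167094124 on the plus strand. Capitals mark matches to the motifs searched on both strands, which were the TATA box spelling TATAAA, the CCAAT box, the GC box spelling GGGCGG, the E-box spelling CAGCTG and the SOX-type spelling AACAAT.
EFHD1: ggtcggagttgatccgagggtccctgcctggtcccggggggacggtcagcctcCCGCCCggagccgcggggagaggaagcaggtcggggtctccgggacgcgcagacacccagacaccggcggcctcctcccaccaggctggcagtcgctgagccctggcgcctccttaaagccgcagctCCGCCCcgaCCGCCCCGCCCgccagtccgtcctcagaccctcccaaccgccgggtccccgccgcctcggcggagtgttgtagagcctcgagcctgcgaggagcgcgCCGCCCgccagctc
STYXL2: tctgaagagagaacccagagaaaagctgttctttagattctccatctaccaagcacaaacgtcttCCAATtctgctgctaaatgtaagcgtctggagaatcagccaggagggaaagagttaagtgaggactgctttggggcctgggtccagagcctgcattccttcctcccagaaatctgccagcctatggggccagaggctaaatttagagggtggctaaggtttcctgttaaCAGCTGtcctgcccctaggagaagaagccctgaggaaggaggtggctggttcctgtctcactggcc

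The EFHD1 window holds 35 CpG sites, more than 85.9% of the 35116 promoters of the table, and is 75.0% G and C. It has 5 matches to GGGCGG, all on the minus strand, 2 of which share 1 base. The STYXL2 window holds 2 CpG sites, more than 11% of promoters, and is 51.7% G and C, with 1 match to CCAAT and 1 to CAGCTG. The median promoter has 14.0 CpG sites and 58.7% G and C. Of all promoter windows 45.0% hold the GC box spelling, 34.6% the CCAAT box, 17.9% the E-box spelling, 11.5% the TATA box spelling and 10.1% the SOX-type spelling. No motif of the 5 was found in both windows.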

How the data were processed

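RNA of MEC-1 cells was measured on 36 Affymetrix arrays in 12 groups of 3. The deposited values are log2 signals of 135750 units, per their range (1.96 to 19.93). The authors used Affymetrix Expression Console and RMA, as the submitters' processing notes list. Which versions and genome build, and whether the 36 arrays were summarised in 1 run, is not given in the sources used here. Arrays give no read depth, and their number limits the precision. Symbols came from the array's unit table: 36176 units had 1 symbol, 1119 several and 98455 none.

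Group means were fitted over the 12 arrays of each experiment, and over the 9 scrambled arrays, with limma 3.58.1 in R 4.3.3, on all units without a filter, because a dim unit passes one only through the group where it is high. A unit was called at a two-sided Benjamini-Hochberg adjusted p under 0.05 over all units. Tested on simulated data, the fit recovered 87.0%, 92.0% and 86.0% of 200 units changed by 2 (log2) in the LINC00158, RP11-161H23.5 and CYTOR designs. The simulated noise was independent between units and arrays and held no sets of arrays, so this checks the fit and not the calls in these data. An exact permutation test of 3 arrays against 3 cannot go below 0.1 and was not used.

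The members and the 11 gene lists were chosen with earlier results of these data known. Named genes were the 5 members, the 3 most correlated genes of each, and up to 4 called members of each list and experiment by size of change, or the 2 largest where none was called. One gene that this rule takes is not reported here. MITF, ERBB3, CCND1, MCU and the second values of RET, EFHD2 and ING3 are additions by known role. The counts of units near a gene were added after its values were seen.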

Additional observations from a re-analysis of the deposited data

Results flagged for a closer look

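SOX10 and EFHD1 had all treated arrays above scrambled gapmer in 2 experiments and all below it in the CYTOR-labelled arrays. For SOX10 the change in the LINC00158 experiment was 4.19 above that in the CYTOR-labelled arrays (3.31 and -0.88), and the change in the RP11-161H23.5 experiment was 3.76 above it (2.88 and -0.88). For EFHD1 the same differences were 2.98 (2.15 and -0.83) and 2.75 (1.92 and -0.83). The differences themselves were not tested, because both genes were chosen on these changes.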

How the results depend on the processing

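Alternatives were quantile normalization on top of the deposited values, a filter at the median signal, limma with trend and robust, all 36 arrays or only the groups of the contrast in 1 fit, a replicate block, all 9 scrambled arrays as the control, the mean over all units of a gene, and each array left out in turn. Averaging both units cut the MYEOV change to 1.65 (main 4.25) with LINC00158 gapmers and 1.54 (main 3.72) with RP11-161H23.5 gapmers. It cut the JAZF1 change to 1.05 (main 2.61) in the LINC00158 experiment and turned it in the RP11-161H23.5 experiment to -0.05 (main 0.42), with -0.06, -0.04 and -0.04 for gapmer 1, gapmer 2 and gapmer 1+2. Against all 9 scrambled arrays JAZF1 changed by 1.70 with LINC00158 gapmers and by 1.60 with RP11-161H23.5 gapmers, where MYEOV changed by 4.06. Quantile normalization, which removes the -0.19 difference in array medians, gave -0.38 for MYEOV, -0.61 for SOX10, -0.53 for EFHD1 and 0.57 for STYXL2 in the CYTOR-labelled arrays. No direction of SOX10, EFHD1 or STYXL2 turned under these alternatives.

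The second JAZF1 unit was called in the LINC00158 experiment with the filter (-0.52, adjusted p 0.0443) and with all 36 arrays (-0.52, adjusted p 0.0108). Its call with RP11-161H23.5 gapmers was lost with quantile normalization (-0.47, adjusted p 0.0699), trend and robust (-0.51, adjusted p 0.0715) or the replicate block (-0.51, adjusted p 0.0635). The second MYEOV unit was not called in the CYTOR-labelled arrays with quantile normalization (-0.45, adjusted p 0.180). Calls over the 5 lists were 16 (main 25) with quantile normalization in the LINC00158 experiment, 9 (main 14) with the filter in the RP11-161H23.5 experiment, and 13 and 12 (main 20) with quantile normalization and the filter in the CYTOR-labelled arrays. The causes were not tested. Samples share only a number: same-numbered arrays correlated at -0.13 to 0.13, and the replicate block changed no other call of a second unit or between treatments.

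Leaving out 1 array, the changes in the LINC00158, RP11-161H23.5 and CYTOR-labelled comparisons ran as follows. MYEOV ran from 4.17 to 4.37, 3.51 to 3.91 and -0.97 to -0.52. SOX10 ran from 3.19 to 3.38, 2.67 to 3.06 and -0.93 to -0.81, and EFHD1 from 1.98 to 2.37, 1.87 to 2.00 and -1.0 to -0.61. STYXL2 ran from 1.92 to 2.08, 2.54 to 2.75 and 0.23 to 0.48, and JAZF1 from 2.37 to 2.85, 0.35 to 0.50 and -1.50 to -0.98. The second MYEOV unit ran from -1.07 to -0.80, -0.74 to -0.53 and -0.91 to -0.63, and the second JAZF1 unit from -0.70 to -0.32, -0.57 to -0.41 and -1.30 to -1.19. Calls of the 5 genes between treatments stayed at 0. For genes named from the lists, 53 of 436 alternative fits and 241 of 1128 fits without 1 array lost the call.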
